A study of Mus musculus with 2 samples.

Results

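The genes described here encode the pore-forming and accessory subunits of potassium channels that carry a Kcn symbol. They were chosen by name alone, as genes whose mouse symbol is Kcn followed by 1 letter and digits, with the symbol taken from the accession of each array probe. The rule took 80 genes of the 20017 named genes on the array, and all 80 such symbols of the RefSeq gene table had a probe. Another 15 genes with a Kcn symbol of a different form, such as Kcnma1, Kcnab1 and Kcnip3, fell outside the rule. RNA was measured on 2 Agilent mouse expression arrays, 1 for each group. The TG+STZ array carried RNA of transgenic mice labelled as overexpressing Sirt1, an NAD-dependent protein deacetylase, and the WT+STZ array RNA of wild-type mice. Both groups were males on a C57BL/6J background. At 8 weeks old they were treated with STZ, streptozotocin, which kills the insulin-producing cells of the pancreas, dissolved in citrate buffer of 100 mmol/l, and they were killed when 32 weeks old. RNA came from glomerular regions dissected out of the kidney. The promoter of the transgene and the number of mice behind each array are not given in the sources used here. The RNA of each array came from STZ-treated mice, and no array of untreated mice was analysed here.

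Potassium channels let potassium ions pass the cell membrane down their gradient and so set the membrane voltage. In the kidney, inward rectifiers return potassium to the tubule lumen in the thick ascending limb, secrete it in the collecting duct and keep up the voltage on the blood side of distal tubule cells, while voltage-gated, calcium-activated and ATP-sensitive channels set the tone of vascular smooth muscle. Two-pore channels carry the resting leak of many cells. Kcne genes encode small beta subunits that have no pore of their own and tune the channels they join.

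Sirt1 read 2977 intensity units in TG+STZ and 2625 in WT+STZ, a scaled log2 difference of 0.10 ± 0.20 from 1 probe. The ± value is the error that the scanner software gives for the spots of both arrays and covers a single hybridisation. With 1 array per group no test between the groups was possible, so each gene has a single log2 difference, positive where TG+STZ was higher, taken after each array was centred on the 75th percentile of its gene spots. Those percentiles were 2042 units in TG+STZ and 1933 in WT+STZ. Intensities are given before that scaling. Since probes differ in brightness for the same amount of RNA, bright and dim describe a probe's signal and not the amount of a transcript, and sums over markers are weighted towards bright probes. On both arrays the 8 podocyte markers, with summed intensities of 25544 units in TG+STZ and 29526 in WT+STZ, and the 7 markers of proximal tubules cleared the background flag, so the RNA held transcripts of glomeruli and of tubules. In such mixed RNA, fewer cells of a type and less RNA per cell cannot be told apart.

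Of the 80 potassium channel genes, 54 (67.5%) had a probe well above background on both arrays, against 79.8% of all named genes. A further 2 genes were above background in TG+STZ alone and 1 in WT+STZ alone, against 318 and 150 of all 20017 named genes. The other 23 (28.75%) were above background on neither array, against 17.8% of all named genes. Detection differed by class. It reached both arrays for 23 of 40 voltage-gated genes, 11 of 15 inward rectifiers, 11 of 14 two-pore genes, 6 of 7 genes of channels opened by intracellular ions or pH, and 3 of 4 beta subunits. Within the voltage-gated class, all 4 Kcnc and all 3 Kcnd genes were measured, but only 3 of 8 Kcnh genes, 1 of 5 Kcnq genes and neither of the 2 Kcnv genes. The probes of the 23 undetected genes read 1.93 to 10.2 units in TG+STZ and 2.12 to 10.4 in WT+STZ, and among them were Kcne2, a beta subunit of the stomach and thyroid, Kcna10 and the neuronal M-current gene Kcnq3. Others were Kcna2, Kcnb2, Kcng3, Kcng4, Kcnh1, Kcnh5, Kcnh6, Kcnh7, Kcnh8, Kcnj3, Kcnj14, Kcnk7, Kcnk10, Kcnk18, Kcnn1, Kcns2, Kcnv1 and Kcnv2. The lowest probe counted as well above background read 9.72 units in TG+STZ and 10.6 in WT+STZ.

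**Figure D1:**
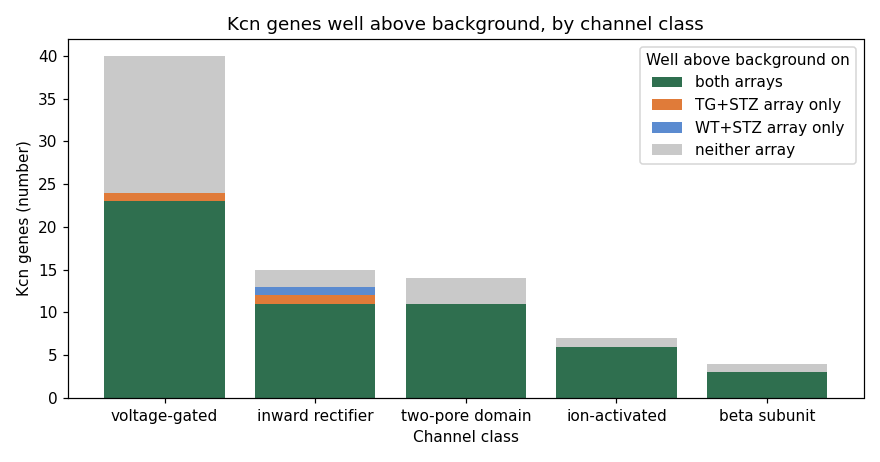
Number of Kcn genes (vertical axis) in each channel class, coloured by the arrays on which at least 1 probe was well above background. The 23 genes seen on neither array include 16 of the 40 voltage-gated genes.

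Most measured potassium channel genes stood slightly lower on the TG+STZ array. Of the 54, 38 were below 0 and 16 above, while 49.1% of all measured genes were below 0 and 50.9% above. The members had a median difference of -0.12, ranging from -0.98 to 1.19, against a median of 0.00 over all 15979 measured genes. Lower values outnumbered higher ones among both brighter and dimmer members. Of the 39 members with a mean intensity of 50 units or more, 27 were lower, against 48.1% of all such genes, and of the 15 dimmer members 11 were lower, against 55.9%. This split did not match members to other genes in signal. Above it the median intensity was 224 units for members and 1203 for all genes, and below it 22.6 and 27.0. Under normexp background correction the split was 6 higher and 48 lower with a median of -0.19, and 36.8% of all genes were then higher.

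Few differences of the 54 genes measured on both arrays were large. Among these, only Kcnk12 was at least 2-fold higher, against 0.519% of all genes, and none was at least 2-fold lower, against 0.469%. Genes above background on 1 array have bounds, given with their classes, and are not in these counts. At 1.5-fold 2 members were higher, against 1.75%, and 3 lower, against 1.92%. Kcnk12 was also the only one of the 15 dimmer measured members to differ 2-fold either way, against 2.87% of dim genes, and none of the 39 brighter members did, against 0.722%. Of the 54, 7 (13.0%) lay outside the span from -0.52 to 0.49 that holds the middle 95% of all genes, against 5.01% of genes. Among the members of 50 units or more 4 of 39 did so, against 3.65% of such genes, and among the dimmer members 3 of 15, against 14.6%. A difference larger than its scanner error was seen for 22 members (40.7%), 5 higher and 17 lower, against 23.7% of genes. For 7 members (13.0%) it was larger than 2 errors, against 7.5% of genes. The shares beyond the errors were not split by signal, and members had a median intensity of 133 units against 840 for all genes.

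**Figure D2:**
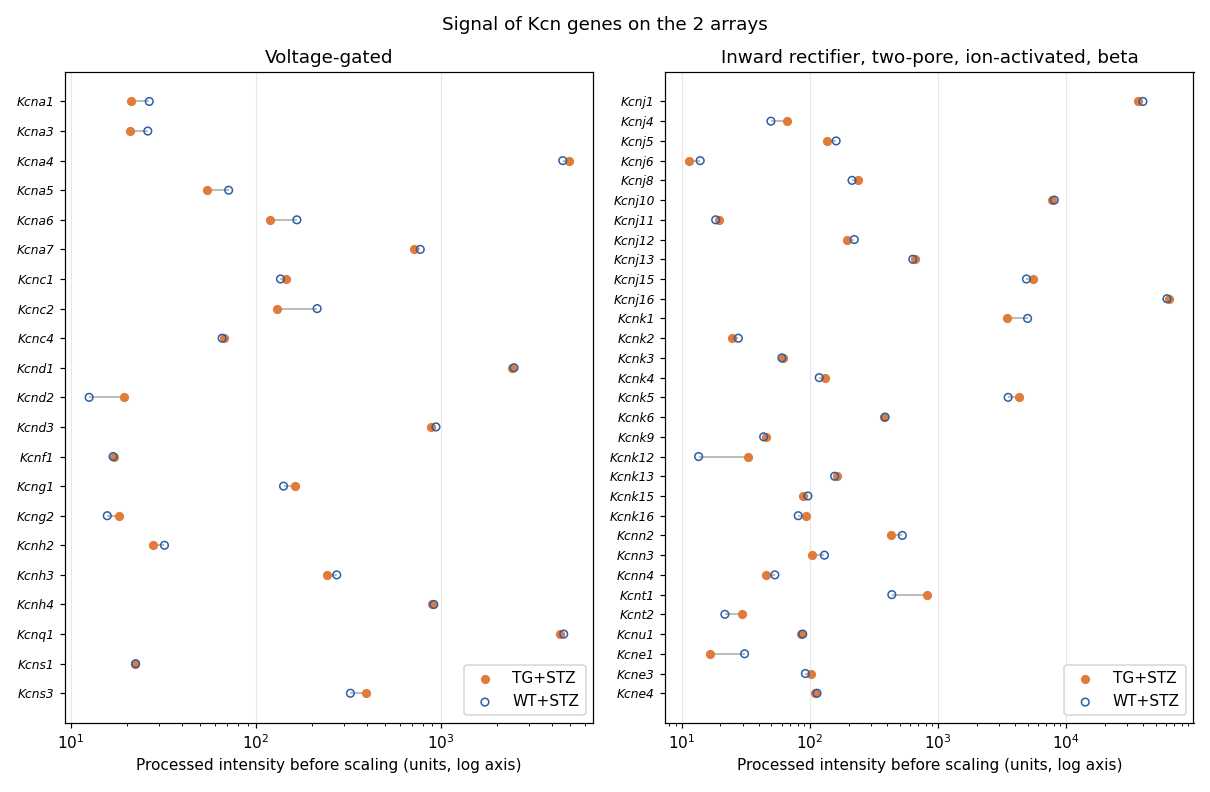
Processed intensity before scaling (horizontal log axis) of 52 of the 54 measured Kcn genes on the TG+STZ array (filled) and the WT+STZ array (open), with 1 row per gene and the mean over its measured probes. Most pairs of points nearly coincide, and Kcnk12, Kcnt1, Kcnc2 and Kcne1 are among the pairs that separate.

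**Figure D3:**
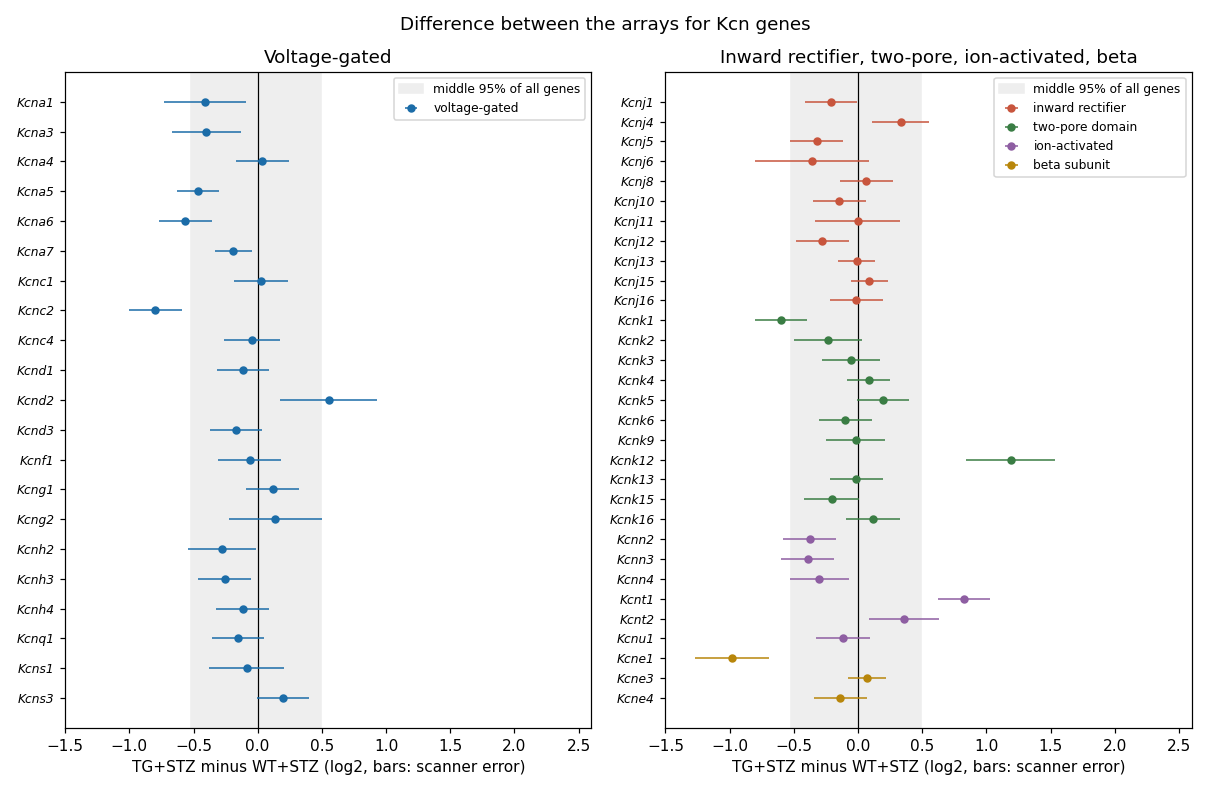
Difference between the arrays (log2, TG+STZ minus WT+STZ) for 52 of the 54 measured Kcn genes, with bars for the scanner error and a grey band for the middle 95% of all genes. Points lie left of 0 for 36 genes, and 7 lie outside the band.

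Among the inward rectifiers of the tubule, Kcnj1 was lower by slightly more than its error, and the others named here differed by less than theirs. Kcnj1 encodes ROMK, the channel of potassium secretion and recycling, and read 36266 units in TG+STZ and 39713 in WT+STZ, a difference of -0.21 ± 0.20. Kcnj10 and Kcnj16 encode Kir4.1 and Kir5.1, which together form the channel on the blood side of the distal tubule. Kcnj10 read 7718 units in TG+STZ and 8079 in WT+STZ, at -0.14 ± 0.20. Kcnj16 read 64027 units in TG+STZ and 61165 in WT+STZ, at -0.01 ± 0.20. Both pore partners were thus within their errors. Kcnj15, whose product Kir4.2 lies on the blood side of proximal tubule cells, stood at 0.09 ± 0.14, with probes at 0.06 and 0.12. Kcnj13, which encodes Kir7.1, stood at -0.01 ± 0.14, with probes at -0.03 and 0.01.

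Genes of ATP-sensitive channels stood near 0. Kcnj8, the Kir6.1 pore found in vascular smooth muscle, read 235 units in TG+STZ and 213 in WT+STZ, at 0.07 ± 0.20. Kcnj11, the Kir6.2 pore of beta cells, was dim, with 19.4 units in TG+STZ and 18.4 in WT+STZ, at -0.00 ± 0.33. Their sulfonylurea receptor partners Abcc9 and Abcc8 stood at -0.04 and -0.11.

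The G protein-gated and strong inward rectifiers varied more. Kcnj5 read 135 units in TG+STZ and 160 in WT+STZ, at -0.32 ± 0.21. Kcnj6, furthest from 0 of the measured inward rectifiers, read 11.5 units in TG+STZ and 13.9 in WT+STZ, at -0.36 ± 0.44 over 10 spots of 1 probe. Of those spots 5 were well above background in TG+STZ and 7 in WT+STZ, so the value lies at the edge of detection. Kcnj9, of the same G protein-gated group, was above background in WT+STZ alone, with 9.25 units in TG+STZ and 17.7 in WT+STZ. This gave a bound of 1.93-fold lower in TG+STZ. Kcnj2, the strong inward rectifier Kir2.1, stood the other way. It read 30.2 units in TG+STZ and 8.11 in WT+STZ, where it was not well above background, which gave a bound of 2.69-fold higher in TG+STZ. The related Kcnj4 and Kcnj12 stood at 0.33 ± 0.22 and -0.28 ± 0.21. For each bound the dim array was given its probe's own scaled signal or that of the lowest probe counted as well above background there, whichever was larger. Some probes without that flag read above this level. The bounds also leave out the scanner error, of 0.49 for Kcnj9 and 0.45 for Kcnj2 on the log2 scale, so they are not strict limits. The inward rectifiers as a class had a median of -0.01 with 8 of 11 lower, and under median and spike-in centring the median was 0.01 with 5 of 11 lower. Under quantile normalization it was -0.07 with 6 of 11 lower. Under normexp it was -0.16 with 9 of 11 lower, where 36.8% of all genes were higher.

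The two-pore channels held the gene furthest above 0 of those measured on both arrays, and 1 bright member was among those furthest below it. Kcnk12, which encodes THIK-2, read 32.5 units in TG+STZ and 13.5 in WT+STZ. Its difference was 1.19 ± 0.35, 2.28-fold higher in TG+STZ, but it came from 1 dim probe and stood at -0.06 under normexp. Kcnk1 encodes TWIK-1, a weakly inwardly rectifying channel of distal nephron cells among others. It read 3478 units in TG+STZ and 4993 in WT+STZ, at -0.60 ± 0.20 or 1.52-fold lower, and lay between -0.62 and -0.58 under the other scalings. Kcnk5, the TASK-2 channel of the proximal tubule that is linked to bicarbonate transport, read 4254 units in TG+STZ and 3521 in WT+STZ, at 0.19 ± 0.20. The others with a known renal or vascular role differed by less than their errors. They were Kcnk13 at -0.01 ± 0.21, Kcnk3, the acid-sensitive TASK-1, at -0.06 ± 0.22, Kcnk6, the TWIK-2 channel, at -0.10 ± 0.20, and the stretch-sensitive Kcnk2, TREK-1, at -0.23 ± 0.26. The remaining Kcnk4, Kcnk9, Kcnk15 and Kcnk16 ranged from -0.21 for Kcnk15 to 0.12 for Kcnk16. The class median was -0.02, with 7 of 11 lower, and 0.01 with 5 of 11 lower under quantile normalization. Under normexp it was -0.16 with 10 of 11 lower, where 36.8% of all genes were higher.

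Markers of the nephron segments in which several of these channels work were read beside them, against the 49.1% of all genes below 0. Of 6 thick ascending limb markers 5 were lower, with a median of -0.21 and summed intensities of 333624 units in TG+STZ and 309252 in WT+STZ, the larger sum resting on Umod. Of 6 principal cell markers 5 were lower, with a median of -0.27 and sums of 66426 units in TG+STZ and 66916 in WT+STZ. Of 7 intercalated cell markers 6 were lower, with a median of -0.25 and sums of 35152 units in TG+STZ and 44553 in WT+STZ. All 5 distal convoluted tubule markers were lower, with a median of -0.15 and sums of 13374 units in TG+STZ and 13947 in WT+STZ. Every marker of these 4 lists was above background on both arrays. The part of cell makeup in the values of Kcnj1 and Kcnk1 was not tested.

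Kcnq1 and Kcne1 encode the pore and the beta subunit of a slowly opening channel that the heart uses to end the action potential and the proximal tubule to hold its voltage. The pore gene differed by less than its error, with 4386 units in TG+STZ and 4614 in WT+STZ, at -0.15 ± 0.20. Kcne1 read 16.5 units in TG+STZ and 30.9 in WT+STZ. Its difference of -0.98 ± 0.29, 1.98-fold lower, was the lowest of the members measured on both arrays and came from 1 dim probe. Under normexp it was -0.53, and under the 75th percentile over detected spots -1.01. The other measured beta subunits stood near 0, with Kcne3 at 0.07 ± 0.15, and -0.10 under normexp, and Kcne4 at -0.14 ± 0.21. Proximal tubule markers had a median of -0.01, with 4 of 7 lower and sums of 768382 units in TG+STZ and 704107 in WT+STZ. Kcnq5, a pore gene related to Kcnq1, was above background in TG+STZ alone. One of its 2 probes read 30.6 units in TG+STZ and 2.19 in WT+STZ, and the other was not above background on either array. The first gave a bound of 2.73-fold higher in TG+STZ, which leaves out a scanner error of 1.45 on the log2 scale.

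The Kcna genes, which encode the Shaker-type voltage-gated channels, were lower nearly throughout. Of the 6 measured, 5 stood between -0.57 and -0.19, and Kcna4 stood at 0.04 ± 0.20. Kcna5 encodes Kv1.5 of vascular smooth muscle. Its probes read 104 and 28.4 units in TG+STZ and 132 and 38.3 in WT+STZ, at -0.43 and -0.51, with a mean of -0.47 ± 0.16. Kcna6 read 119 units in TG+STZ and 166 in WT+STZ, at -0.57 ± 0.21, just outside the middle 95% of genes, and stood at -0.45 under normexp, inside that span. Its second probe was not above background. Kcna1, the Kv1.1 channel that supports magnesium uptake in the distal convoluted tubule, read 21.0 units in TG+STZ and 26.5 in WT+STZ, at -0.41 ± 0.32. Kcna3, the Kv1.3 channel known from T cells, read 20.8 units in TG+STZ and 26.0 in WT+STZ, at -0.40 ± 0.27. Kcna7 stood at -0.19 ± 0.14. The Kcna median of -0.40 lay between -0.43 and -0.33 under the other scalings, with 5 of 6 lower in each.

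Markers of cells known for some of these channels differed among themselves. The leukocyte list had 7 of 7 markers lower, a median of -0.27 and summed intensities of 2494 units in TG+STZ and 2651 in WT+STZ. Of 7 mesangial and smooth muscle markers 5 were lower, with a median of -0.11, a highest value of 0.15 for Itga8 and sums of 23763 units in TG+STZ and 25086 in WT+STZ. Of 6 neuronal markers 4 were lower, with a median of -0.22, a span from -1.28 for Nefl to 0.71 for Syt1, and sums of 26996 units in TG+STZ and 28282 in WT+STZ. Nearly all of both sums was Snap25, with 26789 units in TG+STZ and 28024 in WT+STZ. All markers of these 3 lists were above background. The fat cell list stood apart. Cfd, the adipocyte gene of complement factor D, read 1225 units in TG+STZ and 41.2 in WT+STZ, at 4.82 ± 0.22, the highest difference of all 15979 measured genes. Fabp4, a fatty acid carrier of fat cells and capillaries, read 15379 units in TG+STZ and 11503 in WT+STZ, at 0.34 ± 0.20. The measured fat cell markers summed to 16604 units in TG+STZ and 11545 in WT+STZ. Adipoq, Plin1 and Ucp1 were above background in TG+STZ alone, and Lep on neither array. The part of these cell types in the values of the channel genes, those higher in TG+STZ included, was not tested.

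Kcna5, Kcna1 and Kcna6 follow each other on mouse chromosome 6 in the RefSeq gene table, and all 3 were lower. The promoters of Kcna5 and Kcna6 are shown because these neighbours were lower side by side, a choice made after their values were seen, and that of Kcna1 is not shown here. RefSeq promoters of build GRCm38.p6 were used, each with 250 bases before and 50 after the start of the gene. Both are read on the minus strand, 5′ to 3′, at chr6:126535506-126535805 for Kcna5 and at chr6:126740625-126740924 for Kcna6, and capitals mark CG pairs, the sites of DNA methylation.
Kcna5: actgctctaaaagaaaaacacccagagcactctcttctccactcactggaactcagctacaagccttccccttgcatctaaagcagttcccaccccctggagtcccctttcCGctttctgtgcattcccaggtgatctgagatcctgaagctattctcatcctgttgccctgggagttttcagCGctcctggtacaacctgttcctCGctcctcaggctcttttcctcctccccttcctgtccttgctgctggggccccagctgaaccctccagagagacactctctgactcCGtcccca
Kcna6: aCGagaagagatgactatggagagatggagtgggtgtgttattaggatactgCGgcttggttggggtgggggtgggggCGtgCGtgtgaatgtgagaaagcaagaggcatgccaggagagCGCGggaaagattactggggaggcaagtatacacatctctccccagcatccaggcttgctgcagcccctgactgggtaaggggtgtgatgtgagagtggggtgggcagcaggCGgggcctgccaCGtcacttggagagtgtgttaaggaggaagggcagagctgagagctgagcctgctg
The Kcna5 promoter held 4 CG pairs and 55.0% G and C, and the Kcna6 promoter 8 CG pairs and 58.3%, against medians of 7 pairs and 52.7% over all 32851 promoters of the table. On neither strand did they hold the E-box CACGTG, which 7.15% of all promoters hold, the TATA box letters TATAAA, held by 13.6%, or the GC box letters GGGCGG, held by 35.7%.

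The other voltage-gated genes ranged from -0.80 to 0.55. Kcnc2, a fast-firing Kv3 channel gene, was lowest, with 130 units in TG+STZ and 214 in WT+STZ, at -0.80 ± 0.21 or 1.74-fold lower, and at -0.58 under normexp. Its relatives Kcnc1 and Kcnc4 stood at 0.03 ± 0.21 and -0.04 ± 0.21, within their errors. All 3 measured Kcnh genes were lower, with Kcnh2, the hERG channel gene, furthest at -0.28 ± 0.26. Kcnd2, of the A-type Kv4 channels, read 19.4 units in TG+STZ and 12.5 in WT+STZ, at 0.55 ± 0.38, but stood at -0.14 under normexp. Its bright relatives Kcnd1 and Kcnd3 stood at -0.12 ± 0.20 and -0.17 ± 0.20. The modifier subunits, which do not open alone but join other voltage-gated subunits, differed by less than their errors. Kcns3 stood at 0.20 ± 0.20, Kcng2 at 0.14 ± 0.36 and -0.26 under normexp, and Kcnf1 at -0.06 ± 0.25. Kcng1 and Kcns1 stood at 0.12 and -0.09. Over all 23 measured voltage-gated genes the median was -0.12, with 17 lower.

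Among channels opened by intracellular ions, the few measured Kcnt and Kcnn genes stood on opposite sides of 0. Kcnt1 encodes the sodium-activated channel Slack and read 814 units in TG+STZ and 435 in WT+STZ. At 0.83 ± 0.20, or 1.77-fold higher, it was furthest from 0 of the members with a mean intensity of 50 units or more, and it lay between 0.72 and 0.85 under the other scalings. The related Kcnt2 was dim, with 29.3 units in TG+STZ and 21.7 in WT+STZ, at 0.36 ± 0.27 and -0.19 under normexp. The second Kcnt2 probe was not above background on either array. The 3 measured Kcnn genes, of small and intermediate conductance calcium-activated channels, were all lower. Kcnn2 read 427 units in TG+STZ and 526 in WT+STZ over 10 spots, at -0.38 ± 0.20. The differences of those spots had an SD of 0.05. Kcnn3 read 104 units in TG+STZ and 130 in WT+STZ, at -0.39 ± 0.21. The second Kcnn3 probe was not above background on either array, and with no filter on dim probes the gene stood at -0.21. Kcnn4, the intermediate conductance channel of lymphocytes and fibroblasts, read 45.6 units in TG+STZ and 53.2 in WT+STZ, at -0.30 ± 0.23. The Kcnn median of -0.38 lay between -0.40 and -0.35 under the other scalings. Kcnu1, a sperm channel gene, stood at -0.12 ± 0.21. The 6 measured genes of this class had a median of -0.21, with 4 lower.

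**Figure D4:**
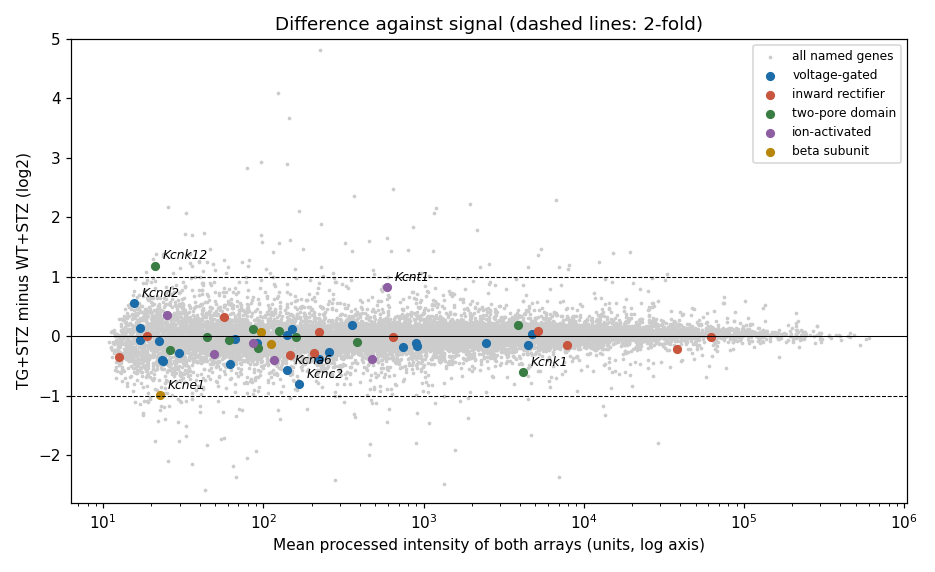
Difference between the arrays (log2, TG+STZ minus WT+STZ) against the mean intensity of both arrays (log axis) for all named genes (grey) and the 54 Kcn genes (coloured by class), with dashed lines at 2-fold. The labelled Kcnk12, Kcnd2 and Kcne1 lie among the dim genes, where all genes scatter more, and Kcnt1 and Kcnk1 among brighter ones.

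**Figure D5:**
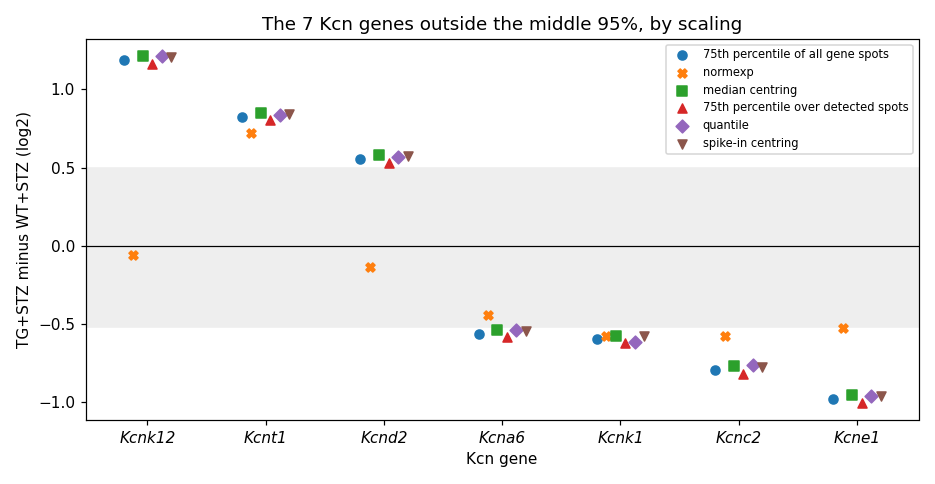
Difference (log2, TG+STZ minus WT+STZ) of the 7 Kcn genes outside the middle 95% of genes (grey band) under 6 ways of background correction and scaling. Kcnk12 and Kcnd2 lie below 0 under normexp, and the other 5 keep their sign.

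Other subunits of potassium channels, which the naming rule left out, were read from a separate list. Of 15 genes, 9 were measured and 7 of them were lower, with a median of -0.04. Kcnmb1 encodes the beta subunit of the large conductance calcium-activated channel in smooth muscle. On 1 dim probe it read 34.0 units in TG+STZ and 52.6 in WT+STZ, at -0.71 ± 0.24. The pore gene of that channel, Kcnma1, stood at -0.12 ± 0.21. Kcnip2, a partner of Kv4 channels, was also dim and stood at -0.68 ± 0.37. The 2 higher genes were Kcnab3 at 0.29 ± 0.22 and Kcnrg at 0.18 ± 0.21.

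Salt transporters and pumps that work beside the renal channels were all measured, 17 genes with 11 lower and 6 higher, with a median of -0.09 and none outside the middle 95% of genes. The sodium channel subunits Scnn1b and Scnn1g, which drive potassium secretion by ROMK, stood at -0.37 ± 0.20 and -0.30 ± 0.21. Slc12a1, the furosemide-sensitive cotransporter that relies on potassium recycling through ROMK, read 21891 units in TG+STZ and 22978 in WT+STZ, at -0.15 ± 0.20. The sodium pump gene Atp1b1 stood at -0.09, and Slc12a7, a potassium chloride cotransporter gene, at 0.17 ± 0.20.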

How the data were processed

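Cy3-labelled RNA was hybridised to 1-colour Agilent mouse arrays, 1 per group. The authors deposited scanner tables of intensity per spot with flags. Per the file headers these came from Agilent Feature Extraction 10.7.1.1, with background subtraction and detrending. Version 10.3.1.1 is the one in the submitters' processing notes. The deposited value table held the same intensity at all 44397 spots of both arrays (no tolerance), with medians of 162 in TG+STZ and 158 in WT+STZ, so arrays had not been scaled to each other.

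Each array held 43020 gene spots, of which 76.3% in TG+STZ and 75.0% in WT+STZ were well above background, and none was saturated. The processed intensity was divided by the array's 75th percentile over gene spots, then put on the log2 scale. No spot of a member was marked as an outlier. Spots of a probe were averaged, and a probe counted as above background where at least 50% of its spots did. Measured probes of a gene were then averaged, and the scanner errors combined. Of the 54 measured members, 46 rested on 1 probe. Of 39429 gene probes, 26410 matched 1 RefSeq symbol. Precision is limited by there being 1 array a group, and the error covers neither mice nor labelling.

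The members, lists and alternatives were chosen with earlier results of these data known. A few genes are counted but not reported here by name. Otherwise named are the furthest member of each subfamily, members outside the middle 95% of genes, members seen on 1 array, members with a known renal role, and any with probes over 1 apart, of which there were none. Further genes are named as relatives of these and were chosen after their values were seen, as was the split at 50 units. In simulated data the steps recovered the medians of sets of genes given known changes of 2-fold or more. Smaller changes and the detection flag were not tested there, and the noise was the same for dim and bright probes. Alternatives were normexp with an offset of 50 on spot medians, other scalings, other probe filters, the brightest probe of a gene, a 1.5-fold threshold and the value table. Python 3.11.15, numpy 2.4.6, pandas 2.3.3, matplotlib 3.10.9, R 4.3.3 and limma 3.58.1 were used.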

Additional observations from a re-analysis of the deposited data

How the results depend on the processing

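With 1 array per group no replicate could be left out. No paired analysis was possible because each group had a single array. The median difference of the members, -0.12, was -0.19 under normexp, -0.082 under quantile normalization and -0.17 with no filter on dim probes, and the cause was not tested. The number of members above 0, 16 of 54, was 6 under normexp, where 36.8% of all genes were above 0. It was 21 under median and spike-in centring, where 57.8% and 56.9% of all genes were. Counts at 2-fold were small and moved with the probes and threshold. Of members higher in TG+STZ there was 1 in the reported setting and 0 under normexp. There were 4 of 80 with no filter and 2 of 64 with the laxer detection flag. At 1.5-fold there were 2, against 1.75% of all genes. Of members lower in TG+STZ there were 0 in the reported setting and 1 under the 75th percentile over detected spots. There were 3 of 80 with no filter and 3 of 64 with the laxer flag. At 1.5-fold there were 3, against 1.92% of all genes. The share of all genes past 2-fold under the other settings is not given here, so those counts have no background. Of the named members' values under these settings, 333 moved by less than the scanner error and 5 by more, all under normexp, and Kcnk12 turned to -0.058 under normexp. Many of the 333 could hardly move by design, so their number is no measure of robustness. The value table repeats the reported intensities, and most genes of 1 probe keep their value under every probe filter. Median, spike-in and detected-spot centring each shift all genes by the same small amount. Over 6 other scalings 38 of the 54 members kept their sign, 33 lower and 5 higher, and 16 turned. The 6 include the value table, which cannot turn a sign, and normexp, under which most of all genes stood below 0. The share of all genes that kept their sign is not given here, so the split has no background. The offset of normexp draws dim genes together by construction. Requiring more than 50% of the spots of a probe, an alternative chosen after seeing the data, removed Kcnj6. Dim members such as Kcnk12, Kcne1 and Kcnd2 lay close to the lowest signal above background on 1 array, which limits their values.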

Other observations

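Regulators of renal potassium channels were mostly a little lower. Of the 16 listed genes, 12 were measured, 9 lower and 3 higher, with a median of -0.10. Cav1, which encodes caveolin-1 of membrane pits, was furthest, with 79.7 units in TG+STZ and 113 in WT+STZ, at -0.58 ± 0.21. Hsd11b2, the enzyme that shields the mineralocorticoid receptor from glucocorticoids, stood at -0.44 ± 0.20, and the receptor gene Nr3c2 at -0.12 ± 0.22. Sgk1, an aldosterone-induced kinase that raises ROMK and sodium channels at the membrane, read 9288 units in TG+STZ and 7654 in WT+STZ, at 0.20 ± 0.20. The kinases Wnk1 and Wnk4 stood at -0.12 and -0.19.

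Among neighbouring members on other chromosomes, Kcnj5 and Kcnj1 on chromosome 9 were both lower, at -0.32 and -0.21, and Kcnk5 and Kcnk16 on chromosome 14 both higher, at 0.19 and 0.12, with Kcnk16 at -0.06 under normexp. Kcnj6 and Kcnj15 on chromosome 16 stood on opposite sides of 0, at -0.36 and 0.09.

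Lists of other cell types that were read beside the channels gave 6 of 8 podocyte markers lower with a median of -0.10, and 5 of 6 endothelial markers lower with a median of -0.08. Of 6 pancreas markers, 4 were measured and 3 of them were lower.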
